A study of Homo sapiens with 29 samples.

Results

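The genes described here are 154 of the 14884 genes that the array's probe table names, chosen by symbol alone. They are every gene whose symbol begins with KIF, CEP, PLK, NEK, SKA, SGO or CDC and a digit, with CENP and a letter, or with BUB, AURK or KNL, together with NUSAP1 and HJURP. The rule itself uses no measured value, though it was written with earlier results of these data known. The rule also asked for the condensin subunits (symbols beginning NCAP), of which the table named 0. The members were split into roles by symbol, except that mitotic motors and CDC genes of the cell cycle were listed by known function. This gave 13 mitotic motors (NUSAP1 included), 28 other KIF genes (called other motors below) and 27 centromere and kinetochore genes. There were also 38 centrosome and cilium genes, 18 AURK, PLK and NEK kinases, 14 CDC genes of the cell cycle and 16 other genes with a CDC name. Symbols alone placed the long non-coding RNAs KIF9-AS1 and CEP83-DT and the pseudogene CENPBD2P in these roles. RNA came from HepG2, an established line of human liver tumour cells, on 29 Affymetrix arrays. Cells treated with CCL, the labels' short form for the herb Cratoxylum cochinchinense Lour., had 3 arrays at 6, 12 and 18 h and 2 at 24 and 48 h. Untreated cells had 3 arrays at 6, 12, 24 and 48 h, 2 at 18 h, and 2 at 0 h. Both arms are the same line with no genetic change named, and the labels give no dose and no vehicle, so an effect of CCL cannot be told apart from one of its solvent or of handling. The labels do not say that arrays of a group came from separate cultures, so p-values measure the spread between arrays, which may be technical.

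Kinesins are motors that walk along microtubules. Some carry vesicles and organelles through the cell at all times, while the mitotic ones build the bipolar spindle, move chromosomes and complete division of the cytoplasm. The kinetochore is the protein assembly on centromeric chromatin that holds spindle microtubules, and the centrosome, built around a pair of centrioles, nucleates them. Aurora and polo-like kinases drive these steps, and the anaphase-promoting complex, whose subunits and activators carry CDC names, ends mitosis by marking its regulators for destruction. Many of these genes are transcribed mainly in G2 and M phase, under complexes that bind an element called the cell cycle gene homology region, often beside CCAAT boxes.

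Because members that share this kind of promoter are set against members that do not, the promoters of 6 of them are printed here. KIF20A and KIF11 were taken from the mitotic motors, CENPA from the centromere genes, PLK1 from the kinases and CDC20 from the CDC genes. All of these were lower with CCL in the mean over the 5 times, and PLK3 was taken from the members that were higher. Each is the 250 bases before the start of the gene in RefSeq on GRCh38.p14, printed 5′ to 3′ on the gene's strand, and capitals mark matches on either strand to TTTGAA or TTTAAA (forms of the homology region), CCAAT or GGCGGGAA. No 2 matches overlapped.
KIF20A (chr5:138178862-138179111, plus strand): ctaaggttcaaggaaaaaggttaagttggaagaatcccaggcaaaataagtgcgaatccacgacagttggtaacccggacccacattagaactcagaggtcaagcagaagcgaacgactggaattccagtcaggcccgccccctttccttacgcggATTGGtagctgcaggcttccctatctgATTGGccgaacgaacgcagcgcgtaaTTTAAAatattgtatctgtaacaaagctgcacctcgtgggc
KIF11 (chr10:92592880-92593129, plus strand): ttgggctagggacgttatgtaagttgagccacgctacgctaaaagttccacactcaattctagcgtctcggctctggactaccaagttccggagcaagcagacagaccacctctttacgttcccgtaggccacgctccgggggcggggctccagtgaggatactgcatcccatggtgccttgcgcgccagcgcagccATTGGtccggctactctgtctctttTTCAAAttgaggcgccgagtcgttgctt
CENPA (chr2:26785806-26786055, plus strand): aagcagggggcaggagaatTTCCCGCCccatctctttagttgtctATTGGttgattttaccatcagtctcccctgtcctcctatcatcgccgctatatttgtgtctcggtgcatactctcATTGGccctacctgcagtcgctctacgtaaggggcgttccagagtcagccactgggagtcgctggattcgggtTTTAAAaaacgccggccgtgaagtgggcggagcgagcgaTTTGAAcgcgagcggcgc
PLK1 (chr16:23678639-23678888, plus strand): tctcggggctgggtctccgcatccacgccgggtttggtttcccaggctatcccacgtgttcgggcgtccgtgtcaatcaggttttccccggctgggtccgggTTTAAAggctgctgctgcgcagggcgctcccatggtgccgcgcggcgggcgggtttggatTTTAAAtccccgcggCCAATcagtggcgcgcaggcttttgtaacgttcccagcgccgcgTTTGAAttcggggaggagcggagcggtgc
CDC20 (chr1:43358731-43358980, plus strand): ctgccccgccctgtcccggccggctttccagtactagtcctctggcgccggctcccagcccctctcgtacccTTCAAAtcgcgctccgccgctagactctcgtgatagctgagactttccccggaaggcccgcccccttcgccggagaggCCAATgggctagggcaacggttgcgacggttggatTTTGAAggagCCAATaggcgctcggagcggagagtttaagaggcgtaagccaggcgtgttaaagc
PLK3 (chr1:44800127-44800376, plus strand): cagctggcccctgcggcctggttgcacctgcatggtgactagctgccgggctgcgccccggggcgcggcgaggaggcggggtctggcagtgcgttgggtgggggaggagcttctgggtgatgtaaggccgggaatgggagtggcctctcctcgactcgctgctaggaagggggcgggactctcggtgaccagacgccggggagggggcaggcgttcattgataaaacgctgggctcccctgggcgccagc
In KIF20A a TTTAAA began 41 bases before the start, with CCAAT boxes (read as ATTGG) at 94 and 67 bases. KIF11 held a TTTGAA (read as TTCAAA) at 28 bases and a CCAAT box at 53 bases. CENPA had 5 matches, PLK1 and CDC20 had 4 each, and PLK3 had 0. Over the 250 bases before and 50 after the start, 12 of the 13 mitotic motors (92.3%) held TTTGAA or TTTAAA. Of the 5261 genes tested on the arrays that had a promoter in the table, 15.5% did, and of all 27305 promoters 24.3%. The share was 42.9% for centromere and kinetochore genes, 40.6% for centrosome genes, 38.5% for the other CDC names and 9.09% for the other motors. It was 20% for the kinases and 14.3% for the CDC genes of the cell cycle. PLK1 and CDC20, printed above, are thus not typical of their roles in holding these strings. AURKB, NEK2 and NEK9, kinases that were also lower, held neither. CENPI, the centromere gene that changed most, had no match to any of the strings marked above. The 6 printed genes were picked by hand, so the contrast between them and PLK3 reflects that choice and is not a result. A CCAAT box was present in 84.6% of mitotic motors, 61.9% of centromere genes, 27.3% of other motors and 37.4% of tested genes. GGCGGGAA, a form of the E2F site, was in 10% of the 130 members with a promoter and 5.63% of tested genes. For 14 of these 130 members, CENPI among them, the start used by the table lies more than 250 bases inside the gene record. A match is a string of letters and does not show that a factor binds there.

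Levels below are log2 values as deposited, and 1 probe set stood for each gene. A gene was tested where it reached log2 5 on at least 2 arrays, which 6529 genes did, 117 members among them. Of these, 114 reached it in both arms, KIF19 and NEK10 in untreated cells alone, and CENPBD2P only when both arms were counted. Just outside lay CEP128, KIF4B, CENPH and KIF5A, whose second highest array was at 4.98, 4.95, 4.92 and 4.88, and just inside lay CENPBD2P, KIF19, CEP164 and SGO2 at 5.00, 5.05, 5.28 and 5.29. Of the 154, 5 are not protein coding. The 37 untested members included 14 of 28 other motors and 1 mitotic motor, KIF4B. Array medians over all probe sets were uneven, with CCL 18 h set 3 highest at 3.39 and untreated 18 h set 1 lowest at 2.29. The median CCL effect over all genes was 0.41 at 18 h and -0.26 at 48 h on the log2 scale, so values after quantile normalization, which gives every array the same distribution, are set beside the deposited ones. All 6 hepatocyte markers that the table named lay at 6.57 or above on every array, with ALB at 11.7 to 12.1 and AFP at 10.1 to 11.1 on all arrays. The fibroblast and endothelial markers DCN, PECAM1 and VWF stayed between 1.63 and 3.57. Of the leukocyte markers CD14 lay between 2.35 and 4.72 and LYZ between 10.3 and 10.95. The proliferation gene MKI67 ranged from 5.88 to 9.42.

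Averaged over the 5 times with equal weight, 40 of the 117 tested members were lower with CCL and 11 higher at an adjusted p under 0.05 (limma, Benjamini-Hochberg over 6529 genes). Over all genes tested, 11% were called lower and 13.6% higher. The mitotic motors had 11 of 12 tested members lower and 0 higher, with a median log2 fold change of -0.63 against 0.01 over all genes. Centromere and kinetochore genes had 14 of 25 lower and 0 higher (median -0.50). The CDC genes of the cell cycle had 6 of 14 lower and 3 higher (median -0.39), and the kinases 5 of 13 lower and 1 higher (median -0.25). Centrosome and cilium genes had 4 of 28 lower and 2 higher (median -0.08). The other motors had 0 of 14 lower and 2 higher (median 0.08), and the other CDC names 0 of 11 lower and 3 higher (median 0.14). After quantile normalization 49 members were lower and 12 higher, against 18.9% and 16.5% of all genes, and all 51 members called on the deposited values were among them. The counts of the mitotic motors (11 lower) and other motors (2 higher) were the same on both scales. In bulk RNA, fewer dividing cells and less of these transcripts per cell cannot be told apart.

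**Figure D1:**
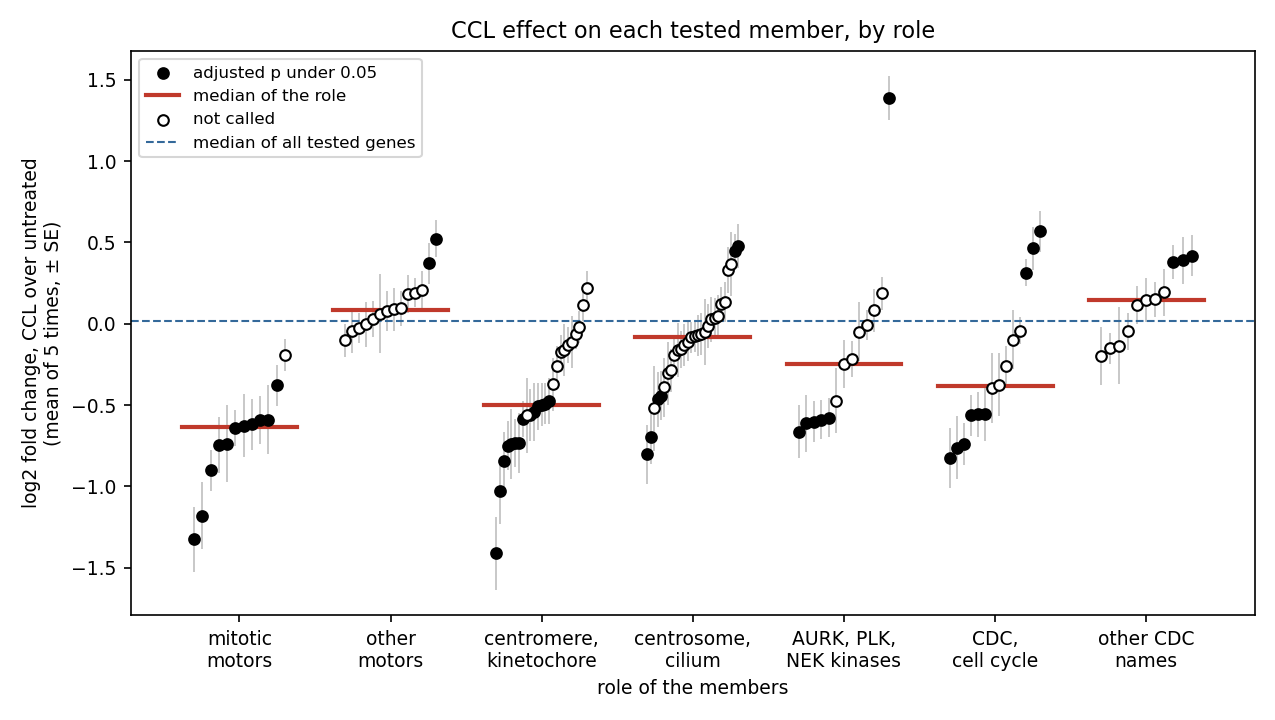
Log2 fold change of CCL over untreated cells in the mean of the 5 times for each of the 117 tested members (y axis, points with standard error bars), grouped by role (x axis), filled where the adjusted p is under 0.05, with a red line at the median of each role and a dashed line at the median of all tested genes. All 12 mitotic motors lie below 0 with a median of -0.63, while the other motors have a median of 0.08.

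Among the mitotic motors, KIF20A, which brings the chromosomal passenger complex to the central spindle for cytokinesis, changed most. Its log2 levels on the CCL arrays at 6 h were 5.92, 6.30 and 6.85, against 7.07, 7.42 and 7.89 on the untreated arrays. At 12 h they were 5.76, 6.46 and 6.16 with CCL and 7.85, 7.94 and 7.78 without. At 18 h they were 6.83, 7.25 and 6.22 with CCL and 7.47 and 7.71 without. At these 3 times every CCL array was below every untreated one. At 24 h the CCL arrays lay at 5.68 and 7.38, against 7.14, 7.68 and 7.74 in untreated cells, and here set 2 with CCL lay inside the untreated range. At 48 h KIF20A was at 4.58 and 6.69 with CCL and at 7.58, 7.60 and 7.67 without, and at 0 h untreated arrays gave 6.47 and 7.52. The mean change over the 5 times was -1.33 ± 0.20 on the log2 scale (SE, limma adjusted p = 2.45e-05), a 2.51-fold lower level.

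KIF11, the motor that pushes the spindle poles apart, gave 7.79, 7.80 and 7.83 with CCL at 6 h and 8.43, 8.78 and 8.57 without. At 12 h it gave 7.38, 7.81 and 7.17 with CCL and 8.60, 8.76 and 8.60 without. At 18 h the 3 CCL arrays (7.94, 8.0 and 7.70) overlapped the untreated ones (7.83 and 8.44). The pair of CCL arrays then split. At 24 h set 1 lay at 5.93 and set 2 at 8.19 with CCL, against 8.14, 8.55 and 8.59 in untreated cells, and at 48 h they lay at 4.90 and 7.43, against 8.34, 8.56 and 8.51. The mean change of KIF11 was -1.18 ± 0.21 (adjusted p = 0.000135).

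NUSAP1, which bundles spindle microtubules around chromosomes, had a median of 7.75 over the 13 CCL arrays (6.25 to 8.05), against 8.36 over the 14 untreated arrays of the same times (8.05 to 8.74). On the deposited values it was the single member lower with CCL whose arms were apart at all 5 times, and after quantile normalization KIF11, KIF20A, CENPI, CDC23, NEK9 and SGO1 were so too. Its mean change was -0.90 ± 0.13 (adjusted p = 9.54e-06). KIF2C, which takes microtubules apart at the centromere, changed by -0.64 ± 0.11, with a CCL median of 6.12 (5.17 to 6.74) against 6.78 (6.46 to 7.03) in untreated cells. KIF18A, which damps chromosome movements at microtubule ends, changed by -0.75 ± 0.17, and KIF20B, of late cytokinesis, by -0.74 ± 0.24. The remaining called motors, KIF15, KIF23, KIF14, KIF18B and KIF4A, lay between -0.63 and -0.38. KIF22, a chromokinesin that pushes chromosome arms, was the tested motor that did not pass (-0.19 ± 0.10, adjusted p = 0.162).

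**Figure D2:**
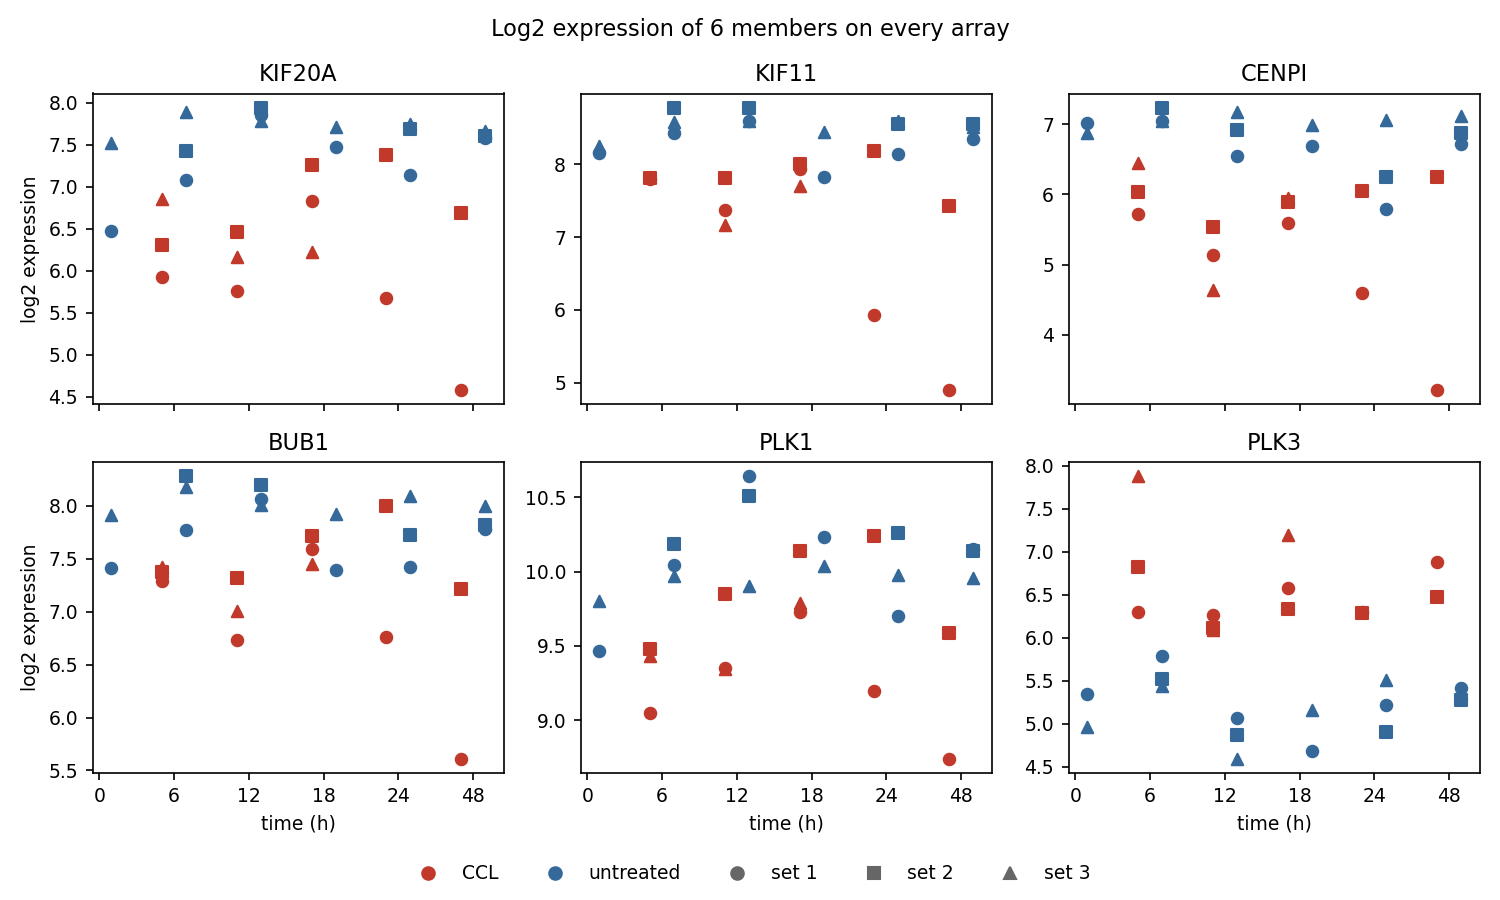
Log2 expression (y axis) of 6 members on each of the 29 arrays by time in hours (x axis, times evenly spaced), CCL arrays in red to the left of untreated arrays in blue, with marker shapes for sets 1 to 3. KIF20A, KIF11, CENPI, BUB1 and PLK1 lie lower with CCL at 6, 12 and 48 h, most of all on CCL 48 h set 1 (KIF11 at 4.90). At 24 h the arms of each overlap, as do those of KIF11, BUB1 and PLK1 at 18 h. PLK3 lies higher at every time.

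The role of other motors takes in every kinesin not listed as mitotic, KIF2A among them, so it is not a class of motors that work only outside mitosis. Among its 14 tested members, 0 were called lower and KIF3C and KIF13A were called higher, 14.3% against 13.6% of all genes. KIF3C, a subunit of the kinesin-2 family, had a median of 6.60 with CCL (5.97 to 7.03) and 6.01 without (5.63 to 6.39), a mean change of 0.52 ± 0.12 (adjusted p = 0.00157). KIF13A, which moves endosomal cargo, had medians of 7.21 with CCL (6.94 to 7.90) and 6.96 without (6.06 to 7.30), a change of 0.37 ± 0.13 (adjusted p = 0.0347) whose call held in 14 of the 27 fits that left out 1 array. With all times pooled the arms overlapped in range for both genes. At matched times every CCL array was above every untreated one at 12, 18 and 24 h for KIF3C and at 24 h for KIF13A. Of all genes, 11.8%, 32.5% and 13.9% were so at 12, 18 and 24 h. KIF5B, the heavy chain of conventional kinesin and the brightest member of this role, ran from 9.51 to 10.26 with CCL and from 9.33 to 10.15 without (-0.03 ± 0.09, adjusted p = 0.856). KIF1C, a carrier of Golgi-derived and other cargo, gave 0.19 ± 0.09 (adjusted p = 0.11).

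Among centromere and kinetochore genes, CENPI, of the inner kinetochore complex that sits on centromeric chromatin, changed most. It lay at 5.72, 6.03 and 6.44 with CCL at 6 h, against 7.05, 7.24 and 7.05 without. At 12 h it lay at 5.14, 5.53 and 4.63 with CCL, against 6.54, 6.92 and 7.18. At 18 h it lay at 5.59, 5.90 and 5.95 with CCL, against 6.68 and 6.99. All 9 CCL arrays up to 18 h were thus below every untreated array of their time. At 24 h the values were 4.59 and 6.05 with CCL and 5.79, 6.24 and 7.06 without, which overlap. At 48 h they were 3.22 and 6.24 with CCL and 6.72, 6.87 and 7.12 without. The mean change was -1.41 ± 0.22 (adjusted p = 3.95e-05), a 2.66-fold lower level.

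SKA3, whose complex keeps kinetochores on shrinking microtubules, had a median of 5.87 with CCL (3.45 to 6.68) and 6.85 without (5.44 to 7.10), a change of -1.03 ± 0.20 (adjusted p = 0.000446). SGO1, the protector of centromeric cohesion, had medians of 6.37 with CCL (3.22 to 6.88) and 6.84 without (6.57 to 7.42) and changed by -0.84 ± 0.18. The lowest CCL value of SKA3, SGO1 and CENPI alike was that of 48 h set 1. BUB1, a kinase of the spindle checkpoint, changed by -0.74 ± 0.15 (adjusted p = 0.000633). It lay at 7.29, 7.37 and 7.42 with CCL at 6 h, against 7.78, 8.28 and 8.18 without. At 12 h it lay at 6.73, 7.32 and 7.0 with CCL, against 8.06, 8.20 and 8.01 in untreated cells. At 18 h it lay at 7.59, 7.72 and 7.45, between the untreated arrays at 7.39 and 7.92. At 24 h it lay at 6.76 and 8.0 with CCL, against 7.42, 7.72 and 8.09, and at 48 h at 5.61 and 7.21, against 7.78, 7.82 and 8.0. The arms were thus apart at 6, 12 and 48 h. CENPU and CENPK, of the same inner complex as CENPI, changed by -0.75 ± 0.15 and -0.74 ± 0.21. CENPA, the histone variant that marks the centromere, changed by -0.59 ± 0.11 and lay lower on every CCL array than on every untreated array at 4 of the 5 times. Also lower were KNL1, SKA1, SGO2, CENPC, CENPN, CENPO and CENPM, between -0.74 and -0.47. Neither BUB3, a checkpoint protein (-0.06 ± 0.09, adjusted p = 0.65), nor CENPV (0.22 ± 0.11, adjusted p = 0.141) was called.

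Calls among centrosome and cilium genes were close to or under the share over all genes, 14.3% lower against 11% and 7.14% higher against 13.6%. CEP70, a centrosome protein, had a median of 4.84 with CCL (3.77 to 5.79) and 5.50 without (5.11 to 6.25), and changed by -0.80 ± 0.18 (adjusted p = 0.00198). CEP78, a centriole wall protein needed for cilia, changed by -0.70 ± 0.17, with medians of 5.57 with CCL and 6.03 without. CEP295, which turns new centrioles into centrosomes, and CEP68, of the linker between centrosomes, changed by -0.46 ± 0.17 (adjusted p = 0.0458) and -0.44 ± 0.15 (adjusted p = 0.0311). In the other direction CEP170, of the subdistal appendages that anchor microtubules, rose by 0.48 ± 0.14, with medians of 5.30 with CCL (4.78 to 6.56) and 4.99 without (4.0 to 5.35). The call of CEP170 held in all 27 fits that left out 1 array and in 9 of 11 other alternatives (adjusted p up to 0.209). CEP170B, a paralog of CEP170, rose by 0.45 ± 0.11 (adjusted p = 0.00316), with medians of 6.58 and 6.11. CEP170P1, a pseudogene copy of CEP170 named here after its value was seen, gave 0.37 and was not called (adjusted p = 0.186), and signal could be shared between such copies. The bright members CEP20, a protein of centriolar satellites, and CEP95 gave -0.01 ± 0.14 (adjusted p = 0.95) and -0.13 ± 0.13 (adjusted p = 0.503).

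Of the kinases, PLK3, a polo-like kinase tied to stress responses, was the 1 called higher over the 5 times, 10 of the 13 being below 0. It lay at 6.30, 6.82 and 7.88 with CCL at 6 h, against 5.79, 5.52 and 5.45 in untreated cells. At 12 h it lay at 6.27, 6.12 and 6.09 with CCL, against 5.07, 4.88 and 4.60. At 18 h it lay at 6.58, 6.34 and 7.20 with CCL, against 4.69 and 5.16. At 24 h the values were 6.31 and 6.29 with CCL and 5.22, 4.90 and 5.51 without, and at 48 h 6.88 and 6.48 with CCL and 5.42, 5.28 and 5.36 without. Every CCL array was above every untreated array of its time, and the highest single value, 7.88, was at 6 h in set 3. The mean change was 1.39 ± 0.14 (adjusted p = 3.66e-08), a 2.61-fold higher level. Single times gave less firm calls. PLK3 was called higher at 6, 12, 18 and 48 h, and at 24 h its change of 1.09 was not called on the deposited values and was called after quantile normalization (1.103, adjusted p = 0.0256). The 6 h call was lost without CCL set 3 (adjusted p = 0.198) or without any 1 of the 3 untreated arrays (up to 0.134). The 12 h call was lost without untreated set 2 or 3 or CCL set 1 or 2 (up to 0.124). The 18 h call was lost without untreated set 1 (0.0862), and the 48 h call without CCL set 1 (0.761) or untreated set 2 or 3 (up to 0.0601).

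PLK1, which acts at centrosomes, kinetochores and the midbody, lay at 9.05, 9.48 and 9.43 with CCL at 6 h, against 10.04, 10.18 and 9.97 without. At 12 h it lay at 9.35, 9.85 and 9.34 with CCL, against 10.64, 10.51 and 9.90. At both times the arms did not overlap. At 18 h it lay at 9.73, 10.14 and 9.79 with CCL, against 10.24 and 10.04, and at 24 h at 9.20 and 10.24, against 9.70, 10.26 and 9.98, and at these times they did overlap. At 48 h it lay at 8.74 and 9.59 with CCL, against 10.15, 10.14 and 9.96. Its mean change was -0.60 ± 0.12 (adjusted p = 0.000802). AURKA, which matures centrosomes, changed by -0.67 ± 0.16, and AURKB, the passenger complex kinase, by -0.58 ± 0.12. NEK2, which separates centrosomes before the spindle forms, changed by -0.59 ± 0.12. NEK9, which activates other NEK kinases in mitosis, changed by -0.61 ± 0.18. AURKA, AURKB and NEK2 each had CCL arrays wholly below the untreated ones at 4 of the 5 times. NEK4 (-0.22 ± 0.11, adjusted p = 0.165) and NEK6 (-0.01 ± 0.09, adjusted p = 0.955) were not called.

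Among the CDC genes of the cell cycle, the subunits of the anaphase-promoting complex with a CDC name did not all move together. Its subunits with other names were not examined. CDC23, one of its subunits, fell by 0.74 on the log2 scale (SE 0.13, adjusted p = 0.000144), with a median of 6.62 with CCL (5.88 to 7.37) and 7.44 without (7.08 to 7.92). CDC16, another subunit, rose by 0.46 (SE 0.13, adjusted p = 0.0112), with medians of 7.24 with CCL (6.81 to 7.75) and 6.87 without (5.62 to 7.24). CDC27, also a subunit, gave -0.04 ± 0.09 (adjusted p = 0.767). CDC20, the activator that starts anaphase, changed by -0.56 ± 0.14. CDC6, which licenses replication origins, changed by -0.83 ± 0.18, and CDC7, a kinase that fires them, by -0.56 ± 0.13. The phosphatases that switch on cyclin-dependent kinases also divided, CDC25C (-0.76 ± 0.19) and CDC25A (-0.56 ± 0.17) being lower and CDC25B higher (0.31 ± 0.08, adjusted p = 0.00706). CDC34, a ubiquitin-conjugating enzyme of G1 to S progression, rose by 0.57 ± 0.13, with medians of 6.94 with CCL and 6.42 without. CDC45, of the replication helicase, gave -0.38 ± 0.19 (adjusted p = 0.163). Of the tested genes named only for their tie to CDC42, CDC42BPA, CDC42EP4 and CDC42SE2 were not called, and the others were called higher. The called ones were CDC42EP1 (0.42 ± 0.13) and CDC42SE1 (0.39 ± 0.14, adjusted p = 0.0486), which encode proteins that bind CDC42, and CDC42BPB (0.38 ± 0.10), a kinase activated by it. The chaperone partner CDC37 (0.15 ± 0.11, adjusted p = 0.33) and CDC123 (-0.05 ± 0.11, adjusted p = 0.81) were not called.

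Of the 51 calls over the 5 times, 36 held whichever of the 27 arrays was left out, and 20 held under all the other alternatives, the means without 48 h or 18 h among them. CENPI, KIF20A, KIF11, NUSAP1, BUB1, PLK1 and PLK3 were among both, while SGO1, KIF18A, KIF23, CDC20 and CDC25C each lost the call under 1 of the other alternatives. The 15 that did not hold without some array were KIF4A, KIF14, KIF15, KIF20B, KIF13A, CENPC, CENPK, CENPM, SGO2, SKA1, CEP68, CEP295, CDC25A, CDC42EP1 and CDC42SE1. CDC42SE1 kept its call in 7 of the 27 cases, and KIF14 and CEP295 in 9. Without the 48 h time the number of lower members was 18, all among the 40, and without the 18 h time the number of higher members was 4, all among the 11.

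**Figure D3:**
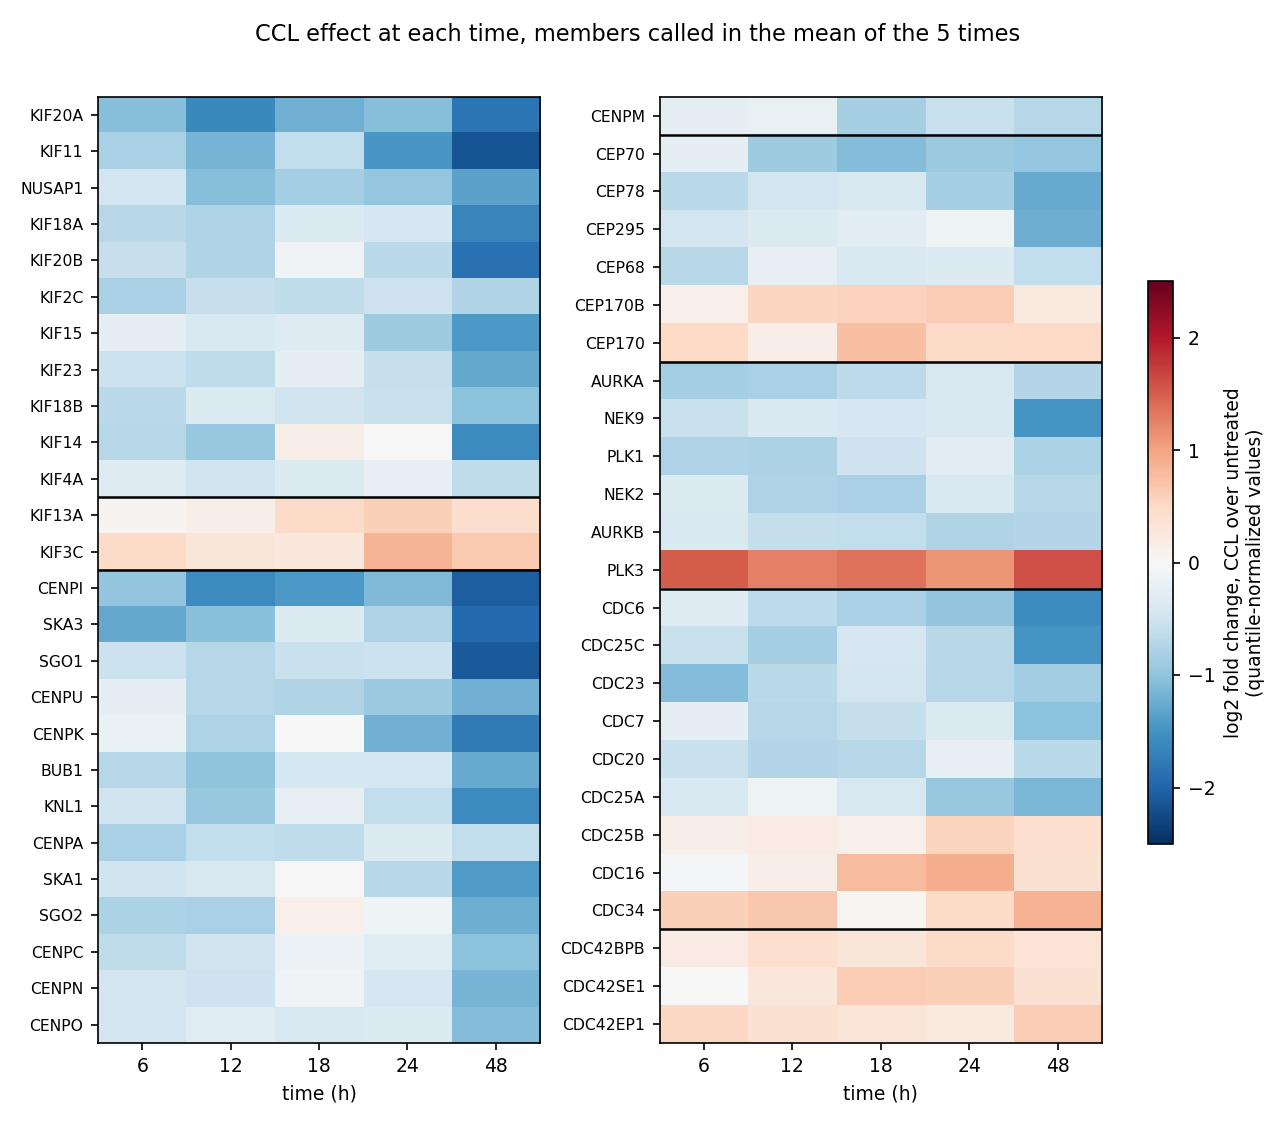
CCL effect at each time in hours (x axis) for the 51 members called in the mean of the 5 times (rows, black lines between roles), coloured by log2 fold change of CCL over untreated cells after quantile normalization, blue lower and red higher. PLK3 is red at all 5 times, and KIF11 goes from -1.45 at 24 h to its deepest blue at 48 h.

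At single times the number of calls depended on the model. With the fit over all arrays few members were called before 48 h. With the set as a fixed block 4 and 14 were lower at 6 and 12 h, and with the compared arrays alone 7, 29 and 0 were lower at 6, 12 and 48 h. Shares of all genes called with the block or with the compared arrays alone are not given here, so these counts are not read as particular to the members. In the fit over all arrays limma called 0 members lower and 1 higher, PLK3, at 6 h, against 0.0306% and 0.276% of all genes. At an unadjusted p under 0.05 there were 17 lower and 2 higher of 117, against 527 of 6529 genes in either direction. At 12 h KIF20A (-1.73 ± 0.42) and NUSAP1 (-1.10 ± 0.27, both adjusted p = 0.0344) were lower and PLK3 (1.31 ± 0.28) higher, against 0.199% and 1.04% of all genes. Neither KIF20A nor NUSAP1 kept that call when any 1 of the 6 arrays of 12 h was left out (adjusted p up to 0.192 and 0.195). After quantile normalization CDC23 at 6 h (-1.09, adjusted p = 0.00842) and BUB1 (-1.01) and CENPI (-1.59) at 12 h were also called, in counts of 1 lower and 1 higher at 6 h (0.398% and 0.904% of all genes) and 4 lower and 1 higher at 12 h (0.459% and 1.78%). CCL arrays lay wholly below untreated ones for 9 of 12 mitotic motors at 6 h and 11 of 12 at 12 h, against 13.8% and 21.4% of all genes. For centromere genes this held for 9 of 25 at 6 h and 13 of 25 at 12 h.

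The 18 h time ran the other way on the deposited values, with 8 members called higher and 0 lower, against 12.3% and 0.184% of all genes. At an unadjusted p under 0.05, 0 of the 117 were lower and 30 higher. Over all genes 2121 of 6529 passed in either direction, a larger share than that of the members. The 8 were CEP57 (1.47 ± 0.33), CEP170 (1.22 ± 0.32), CEP170B (0.99 ± 0.25), CEP76 (0.97 ± 0.29), NEK3 (0.75 ± 0.23), PLK3 (1.78 ± 0.32), CDC16 (1.18 ± 0.31) and CDC42SE1 (1.13 ± 0.34). Untreated 18 h set 1, the array with the lowest median, lay below untreated set 3 for all 8. CEP57, a centrosome protein, read 4.44 there and 6.42 in set 3, against 6.85, 6.78 and 7.07 with CCL. Without that array 0 of the members were called higher (0.352% of all genes), without untreated set 3 there were 40, without CCL 18 h set 3 there were 2 and without CCL 18 h set 2 there were 13. After quantile normalization CEP57 (1.03), CEP170B (0.58), PLK3 (1.36) and CDC16 (0.78) kept the call, 4 higher and 0 lower against 3.43% and 1.75% of all genes, and the median of the mitotic motors was -0.34, against 0.07 on the deposited values. At 24 h 0 members were called on the deposited values, against 0.475% lower and 2.54% higher over all genes. At an unadjusted p under 0.05 there were 10 lower and 7 higher of 117, against 929 of 6529 genes in either direction. Quantile normalization called KIF11 (-1.45) and NUSAP1 (-0.97) lower and KIF3C (0.84), CEP170B (0.64), PLK3 (1.103) and CDC16 (0.91) higher, 2 and 4 members against 2.36% and 4.53% of all genes.

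At 48 h 34 members were called lower and 1 higher, PLK3 (1.33 ± 0.32), against 5.22% and 1.33% of all genes. The lower ones were 10 of 12 mitotic motors, 14 of 25 centromere genes, 5 of 14 CDC genes of the cell cycle, 3 of 13 kinases and 2 of 28 centrosome genes. None of the other motors or other CDC names was called. Quantile normalization gave 34 lower and 1 higher, against 7.23% and 5.18% of all genes, but 32 of the 35 calls were shared. KIF2C, CENPA and AURKB lost the call (adjusted p 0.0639 to 0.0937) and KIF4A, CENPW and PLK1 gained it. KIF11 (-2.30 ± 0.48, 4.94-fold lower), KIF20B (-2.004 ± 0.55), KIF20A (-1.98 ± 0.47) and KIF18A (-1.78 ± 0.40) led the motors. KIF14, KIF15, NUSAP1, KIF23, KIF18B and KIF2C followed, between -1.73 and -0.97. At the centromere SGO1 (-2.22 ± 0.42), CENPI (-2.17 ± 0.52) and SKA3 (-2.06 ± 0.47) led, with CENPK, KNL1, SKA1, BUB1, HJURP, SGO2, CENPU, CENPN, CENPO, CENPC and CENPA between -1.89 and -0.85. The CDC genes were CDC6, CDC25C, CDC25A, CDC7 and CDC23 (-1.72 to -1.09). The kinases were NEK9 (-1.63 ± 0.41), PLK4, which starts centriole duplication (-1.51 ± 0.46), and AURKB (-0.93 ± 0.28), and the centrosome genes CEP78 (-1.41 ± 0.39) and CEP295 (-1.35 ± 0.40). HJURP, the chaperone of CENPA, and PLK4 were called at 48 h and not in the mean of the 5 times.

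The size of the 48 h effect lay mostly in 1 of its 2 CCL arrays. In CCL 48 h set 1 the mitotic motors had a median difference from the 3 untreated arrays of -2.37 and the centromere genes of -1.80, whereas in set 2 these were -0.62 and -0.52. Set 1 also had an array median of 2.75, and its median difference over all genes was -0.48, against -0.04 in set 2. Without set 1, limma called 0 members lower and 0 higher (0.0153% and 0.107% of all genes), with 6 past an unadjusted p of 0.05, and without set 2 it called 69 lower and 1 higher (28.9% and 3.31%). All 12 mitotic motors were below the untreated mean on both arrays, and so were 23 of 25 centromere genes in set 2 and 24 of 25 in set 1. Of all 6529 genes, 3642 were below it in set 2 and 4900 in set 1. For KIF11 the call at 48 h had an adjusted p of 0.00823 with both arrays, and the array of set 2 alone, at 7.43, was below all 3 untreated arrays. At 24 h the same split appeared, with a motor median of -1.27 in CCL set 1 and 0.13 in set 2, or -1.23 and -0.02 after quantile normalization. What separates sets 1 and 2 is not given in the labels, and its part in these results was not tested.

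**Figure D4:**
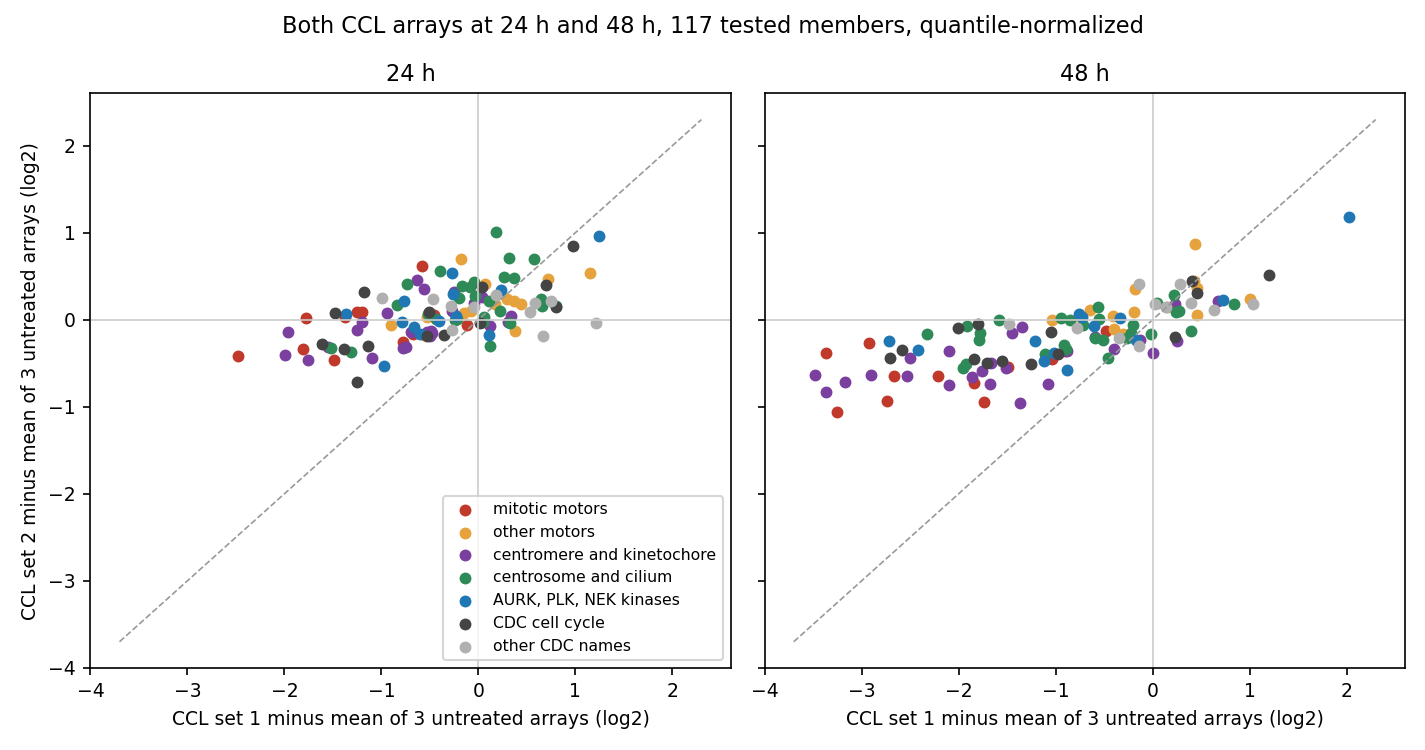
Difference of CCL set 1 (x axis) and CCL set 2 (y axis) from the mean of the 3 untreated arrays of the same time, in log2 after quantile normalization, for the 117 tested members at 24 h and 48 h, coloured by role, with a dashed line of equality. At 48 h most mitotic motors and centromere genes lie left of the line, with motor medians of -2.03 in set 1 and -0.59 in set 2.

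An F-test across the 5 CCL effects, which asks if any time stands out from the others, called 0 members (0.0153% of all genes). Past an unadjusted p of 0.05 were 26 members on the deposited values and 5 after quantile normalization, and the number of all genes past it was not counted. The lowest adjusted p among members was 0.45, shared by several genes, SGO1 and KIF11 among them. Without CCL 48 h set 2 the test called 37 members and without untreated 18 h set 3 it called 18, and with any other array left out it called 0. For KIF11 the effect at 48 h minus that at 6 h was -1.52 ± 0.65 (adjusted p = 0.854), and for SGO1 it was -1.64 ± 0.56 (adjusted p = 0.854). The difference between 48 h and the other times was thus not shown by this test with all arrays. Whether the arms overlapped was counted at each time over all 117 members. CCL lay wholly below untreated cells for 37, 52, 8, 4 and 64 members at 6, 12, 18, 24 and 48 h, against 13.8%, 21.4%, 2.56%, 5.39% and 29.5% of all genes. It lay wholly above for 5, 4, 35, 11 and 4, against 6.23%, 11.8%, 32.5%, 13.9% and 10.3%. After quantile normalization the counts below were 31, 46, 29, 20 and 60, against 11.2%, 17.6%, 17.7%, 12.1% and 21.9% of all genes. Those above were 6, 8, 17, 13 and 15, against 8.19%, 15.7%, 18.2%, 15.5% and 18.9%. The counts at 18 h and 24 h thus depended on the scale. Of the 117 members, 23 were below 0 at all 5 times and 11 above, or 44 and 14 after quantile normalization. After quantile normalization the 44 included 11 of 12 mitotic motors and 12 of 25 centromere genes below 0, and 0 of 14 other motors. The share of all genes with 1 direction at all 5 times was not counted, so these counts are not read as particular to the members.

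**Figure D5:**
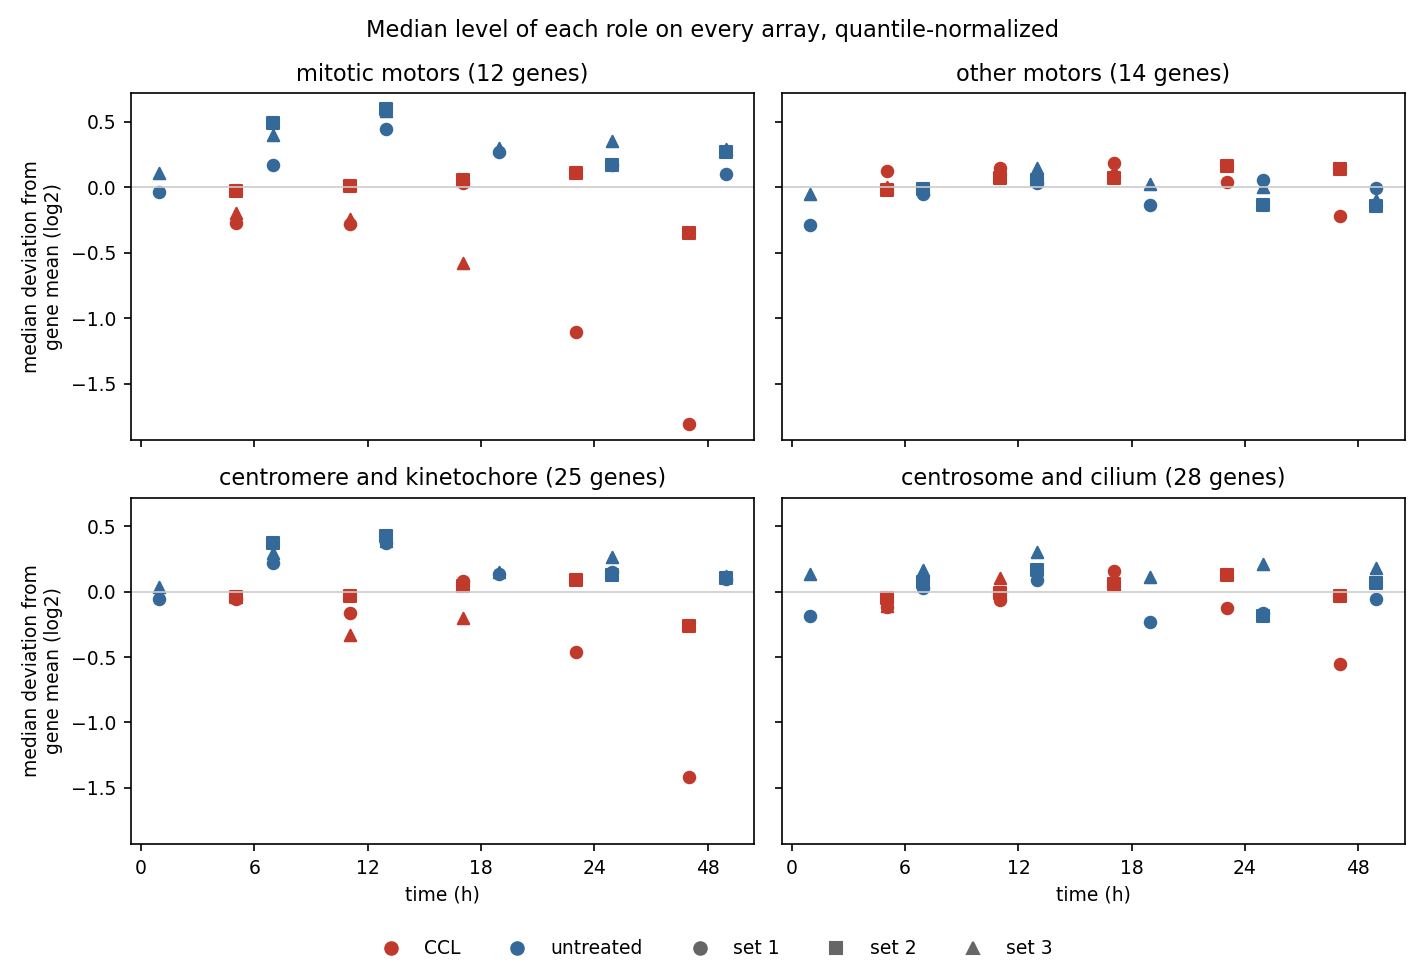
Median deviation of each role's tested genes from their own mean over all arrays (y axis, log2, quantile-normalized) on each of the 29 arrays by time in hours (x axis), CCL in red to the left of untreated in blue, with marker shapes for sets 1 to 3. The mitotic motors reach -1.81 on CCL 48 h set 1 and -1.11 on CCL 24 h set 1, and the other motors stay between -0.29 and 0.19 on all arrays.

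Time in culture without CCL was compared as well. Between untreated 48 h and untreated 6 h, limma called 0 members lower and 0 higher, against 0% and 0.0153% of all genes. At an unadjusted p of 0.05, 0 members passed, against 76 of 6529 genes. The differences ran from -0.46 to 0.32, with a median of -0.14 for the mitotic motors and -0.14 for the centromere genes. KIF20A gave 0.16, KIF11 -0.12, CENPI -0.21 and PLK3 -0.23.

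Genes outside the symbol rule that work with these members were taken from 6 lists of 102 genes. Of 14 tested kinetochore and checkpoint partners, 12 were lower over the 5 times and 0 higher (median -0.53), beside 11% lower and 13.6% higher over all genes tested, shares that serve for all 6 lists. They included NDC80, the microtubule-binding core of the outer kinetochore (-0.98 ± 0.23), OIP5, of CENPA loading (-0.88 ± 0.17), CDCA8, of the passenger complex (-0.80 ± 0.13), and BIRC5, of the same complex (-0.72 ± 0.16). CDCA5 and MAD1L1 were not called (-0.20 ± 0.12 and 0.02 ± 0.10). Of 9 spindle and cytokinesis partners 6 were lower and 0 higher (median -0.66), among them HMMR (-1.05 ± 0.21), CKAP2 (-0.92 ± 0.14), SPAG5 (-0.88 ± 0.18) and GTSE1 (-0.67 ± 0.16), all spindle-associated proteins. ECT2, which starts the cleavage furrow, gave 0.04 ± 0.11 (adjusted p = 0.838). Chromosome structure and mitotic entry genes had 6 of 7 lower, with CCNB2 at -0.81 ± 0.18, SMC4, the condensin core subunit that the NCAP proteins join, at -0.72 ± 0.18 and the cyclin CCNB1 at -0.70 ± 0.14. The exception was WEE1, the kinase that holds CDK1 inactive before mitosis, which rose by 0.81 ± 0.15 (adjusted p = 0.000204). Of 9 tested regulators of mitotic transcription, FOXM1 (-0.57 ± 0.16, adjusted p = 0.00812) and RBL1 (-0.70 ± 0.14) were lower and LIN37 (0.29 ± 0.10) higher, while MYBL2 gave -0.29 ± 0.19 (adjusted p = 0.281). Of 12 centrosome partners 4 were lower, led by STIL (-0.58 ± 0.13) and CCP110 (-0.55 ± 0.13), and CDK5RAP2 was higher (0.35 ± 0.11), with a list median of -0.16. Of 6 transport motor partners KLC2, a kinesin light chain, was the 1 called, and it was higher (0.38 ± 0.11, adjusted p = 0.0146), 1 of 6 being close to the share over all genes.

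Set against the promoters printed above, 58.3% of the 36 members that were lower over the 5 times and had a promoter in the table held TTTGAA or TTTAAA, and 75% held a CCAAT box. Among the 10 such members that were higher these were 0% and 10%, and among the 58 not called 34.5% and 51.7%. CCAAT together with either of the other strings occurred in 44.4% of the lower members, 0% of the higher, 17.2% of those not called and 6.67% of the genes tested. The mitotic motors weigh heavily in the lower members, since 11 of their 12 tested genes were lower and every one of these held TTTGAA or TTTAAA. Of the lower CDC genes of the cell cycle, CDC20 held either string, and CDC6, CDC7, CDC23, CDC25A and CDC25C did not. The contrast between lower and other members is thus partly one between roles. These shares describe the members and were not tested.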

How the data were processed

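The deposited table holds log2 expression values per probe set for 29 single-sample arrays; per the submitters' processing notes the authors used Affymetrix Expression Console 1.1 and RMA, which corrects background, normalizes and summarizes probes. Array medians nevertheless differed, and whether the arrays were normalized together is not given in the sources used here. Of 53617 probe sets 16098 had 1 gene symbol, 0 several and 37519 none in the platform annotation. The probe set with the highest mean stood for a gene (6 members had more than 1), and genes at log2 5 or more on at least 2 arrays were tested. limma 3.58.1 (R 4.3.3) fitted 1 mean per group over all 29 arrays, with p-values adjusted by Benjamini-Hochberg over 6529 genes and a threshold of 0.05. The code was tested on simulated data. The precision is limited by the number of arrays, 2 or 3 per group.

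Groups came from the labels, whose set numbers 1 to 3 recur across groups. Deviations of same-numbered arrays from their group means correlated above 0.1 in 9 of 12 pairs (-0.0657 to 0.444). In 7 of the 12 the same-numbered array correlated best. The labels do not say what a set is, and the set served as a replicate block only among the alternatives. An effect shared within a set may thus remain in the main fit. The other alternatives were quantile normalization, median centring, no filter or a stricter one, the mean of a gene's probe sets, a trended robust variance prior, the compared arrays alone and leaving out each array.

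The members, the roles, the 6 lists of partners, the marker lists (hepatocyte, leukocyte, fibroblast and endothelial, proliferation) and the tests were chosen with earlier results of these data known. Named in full were, per role, up to 6 called members with the largest change over the 5 times, up to 2 of the highest level that were not called, members called at a single time or against their role's direction, and those nearest the filter. Per list of partners, up to 4 called and 2 uncalled genes were named. Promoters came from RefSeq on GRCh38.p14; all 154 members matched RefSeq by gene ID and 130 had a promoter. Protein sequences were not used here.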

Additional observations from a re-analysis of the deposited data

How the results depend on the processing

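No called gene turned its direction, but medians of uncalled effects did with quantile normalization: at 18 h that of the mitotic motors was -0.34 against 0.07 on the deposited values, that of all members -0.06 against 0.38. Counts of members called that moved by over 1.5 times are given here. With quantile normalization, lower members numbered 1 at 6 h, 4 at 12 h and 2 at 24 h, and higher ones 4 at 18 h and 4 at 24 h. With arrays centred on their median there were 4 lower at 12 h, 2 higher at 18 h and 3 higher at 24 h. With no filter there were 0 lower at 12 h and 19 lower at 48 h, and with a filter at log2 6 there was 1 higher at 24 h. With the set as a fixed replicate block there were 4, 14 and 3 lower at 6, 12 and 24 h and 20 and 4 higher at 18 and 24 h. With that block and quantile normalization there were 5, 12, 10 and 9 lower at 6, 12, 18 and 24 h and 2, 6 and 4 higher at 12, 24 and 48 h. With the set as a random block (correlation 0.215) there were 4, 10 and 3 lower at 6, 12 and 24 h and 21 and 4 higher at 18 and 24 h. With the compared arrays alone, 7, 29 and 0 were lower at 6, 12 and 48 h and 0, 2, 1 and 0 higher at 6, 12, 18 and 48 h. Chosen after seeing the data, leaving out the 6 arrays whose median stands apart gave 9 and 2 lower at 6 and 48 h, 0 higher at 18 and 48 h, and 6 higher over the 5 times. The mean without 48 h had 18 lower and that without 18 h had 4 higher. Leaving out single arrays gave 0 to 0 lower and 0 to 1 higher at 6 h, 0 to 0 and 0 to 1 at 12 h, 0 to 0 and 0 to 40 at 18 h, 0 to 10 and 0 to 2 at 24 h, and 0 to 69 and 0 to 1 at 48 h. Over the 5 times it gave 29 (without CCL 24 h set 1 or CCL 48 h set 1) to 51 lower and 8 (without CCL 24 h set 1) to 14 higher, and in the F-test 0 to 37. For most of these fits, here and in the sections above, the share of all genes called is not given. A count of members that moved is thus not read as particular to the members. The cause of these moves was not tested.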
